A study of Mus musculus with 6 samples.

Results

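The let-7 microRNA (miRNA) family was followed through 6 libraries of small RNA from mouse embryonic stem cells. Members were taken by name: an entry belonged to the family when it carried the mature name mmu-let-7a-5p, mmu-let-7b-5p, mmu-let-7c-5p, mmu-let-7d-5p, mmu-let-7d-3p, mmu-let-7e-5p, mmu-let-7f-5p, mmu-let-7g-5p, mmu-let-7i-5p or mmu-miR-98-5p. Of these 10 names, 9 had an entry of their own among the 1899 entries, and mmu-let-7g-5p is not analysed here. The prefix, which stands for mouse, is left off below. In all, 8 of the 9 reached a mean of at least 50 uniquely matched reads per library, as did 351 of the 1899 entries. The remaining member, miR-98-5p, had a mean of 5.67 reads and entered only the summed family. let-7b-5p, let-7d-5p and let-7d-3p, with means of 57.5, 56.3 and 66.5 reads, reached the minimum through their reads in the deepest library.

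All 6 libraries came from 129/Ola embryonic stem cells grown on gelatin in serum with leukemia inhibitory factor (LIF), the cytokine that keeps such cells undifferentiated. The 6 groups had 1 library each: wild-type (WT) cells and Wt1 knockout (KO) cells, each left untreated or treated with retinoic acid (RA), and KO cells given doxycycline (dox) for 12 h or for 24 h. Wt1 encodes a zinc finger transcription factor of the developing kidney and gonad, and dox was given to switch on an inducible copy of it. RA, a vitamin A derivative that makes stem cells differentiate, was used at 1 µM (a concentration the labels write with a lower-case m), and dox at 1 µg/ml. The time in RA, the clones used and the line that holds the inducible copy are not stated in the labels, so a difference between lines cannot be told apart from a difference between groups. Wt1 itself is not seen by small RNA sequencing, so neither its loss nor its induction was checked, and no dox-treated library without the inducible copy was used. With 1 library per group there is no replicate check and no test, and every comparison is between libraries.

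let-7 is a deeply conserved miRNA family that marks the passage from stem cell to differentiated cell. Embryonic stem cells transcribe let-7 precursors, but the RNA-binding protein Lin28 holds many of them back by binding a GGAG motif in the loop of the hairpin, so that little mature let-7 is made until differentiation begins. Mature let-7 in turn represses Lin28, Myc, Hmga2 and Ras genes through its seed, the stretch of bases near the 5′ end that pairs with target RNAs.

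The mature sequences show how little separates the members, which bears on how reads can be assigned to them. They are given 5′ to 3′ as in RefSeq (GRCm38.p6), matched by miRNA name for all 9 members, and each was the same as the sequence in the deposited tables. Capitals mark the seed, bases 2 to 8.
let-7a-5p: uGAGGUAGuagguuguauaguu
let-7b-5p: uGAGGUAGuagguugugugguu
let-7c-5p: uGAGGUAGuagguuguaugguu
let-7d-5p: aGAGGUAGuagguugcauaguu
let-7e-5p: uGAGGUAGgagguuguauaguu
let-7f-5p: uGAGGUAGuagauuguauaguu
let-7i-5p: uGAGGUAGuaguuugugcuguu
miR-98-5p: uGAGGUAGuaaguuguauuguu
let-7d-3p: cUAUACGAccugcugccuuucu
The first 8 share a single seed, GAGGUAG, and let-7d-3p, the other arm of the let-7d hairpin, has the seed UAUACGA. Against let-7a-5p, with positions counted from 1 at the 5′ end and the base of let-7a-5p first, let-7c-5p differs by A19G, let-7e-5p by U9G, let-7f-5p by G12A, let-7b-5p by A17G and A19G, let-7d-5p by U1A and U16C, miR-98-5p by G11A and A19U, and let-7i-5p by 4 substitutions. let-7b-5p is also a single base from let-7c-5p (G17A, base of let-7b-5p first). The labels do not state how many mismatches the authors allowed, so reads of a scarce member may in part be reads of a neighbour that differs by 1 base, and the extent of this was not tested. Among all entries, by their deposited sequences, the same seed was held by let-7k and miR-1961 as well, which had 0 reads in the 6 libraries. let-7j and miR-202-3p matched the first 6 bases of the seed only and also had 0 reads.

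The hairpins of the 2 most abundant members are shown because the Lin28 motif is in the loop of some and not of others. Capitals mark GGAG where it was found in the loop, between the mature arms.
let-7c-1: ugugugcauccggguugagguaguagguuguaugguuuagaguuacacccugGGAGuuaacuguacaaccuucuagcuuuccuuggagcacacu
let-7c-2: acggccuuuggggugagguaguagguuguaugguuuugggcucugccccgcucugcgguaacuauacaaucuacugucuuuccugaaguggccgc
let-7e: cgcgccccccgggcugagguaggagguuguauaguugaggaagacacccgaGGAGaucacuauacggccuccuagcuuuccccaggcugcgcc
let-7c-5p is cut from either of the first 2 hairpins, which carry the same 5p arm. The let-7c-1 hairpin lies at chr16:77599657-77599750 on the + strand (GRCm38.p6), in an intron of the non-coding host gene Mir99ahg and, on the opposite strand, of Gm11146. The let-7c-2 hairpin lies at chr15:85706603-85706697 on the + strand, in an exon of the non-coding gene Lncppara, 621 bases from the let-7b hairpin. The let-7e hairpin lies at chr17:17830352-17830444 on the + strand, in an intron of the protein-coding gene Spaca6. GGAG was searched on the transcribed strand only, since the hairpin is an RNA. It was in the loop of 8 of the 11 RefSeq hairpins of let-7a to let-7f, let-7i and miR-98. The let-7b, let-7c-2 and miR-98 loops did not hold these letters. Hairpins of other let-7 genes were not among the 11. Over the 645 RefSeq hairpins with 2 separate arms, 8.22% held GGAG between the arms. Which of the let-7c hairpins gave the let-7c-5p reads cannot be read from these counts: the 3p arm of let-7c-1 had 4 reads, and the 3p arm of let-7c-2, which has the same sequence as that of let-7a-1, had 3 reads, all 7 in RA-treated WT.

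Depth set the precision of every value. Totals ran from 83626 reads in RA-treated KO to 6106104 in RA-treated WT, a 73.0-fold range, and lay between 1063945 and 3629658 in the other 4 libraries. Levels are given as normalised CPM, counts brought to a common library size with edgeR's TMM factors. A count of 3, taken here as the limit that a count of 0 allows, equals 27.8 normalised CPM in RA-treated KO and at most 2.75 in the other 5 libraries. A member is called higher or lower in a comparison when it differs 2-fold or more (a log2 ratio of 1 or above, or of -1 or below) and its 95% interval, given in brackets, excludes 0. Intervals cover counting error only, because each group has 1 library. They treat each read as independent, which PCR copies without molecular identifiers are not, so they may be too narrow even for that. The stem cell identity of the libraries was checked on 6 miRNAs of the miR-290 and miR-302 clusters, here called the stem cell clusters. These 6 held 0.604% of the reads of RA-treated WT, 7.05% of those of RA-treated KO and 10.8% to 17.2% in the 4 libraries without RA.

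let-7 was a minor part of the miRNAs of every library. The 9 members had 1512 reads in untreated WT, 1777 in untreated KO, 576 at dox 12 h, 3309 at dox 24 h, 41752 in RA-treated WT and 397 in RA-treated KO. As shares of all reads these are 0.142%, 0.100%, 0.0469%, 0.0912%, 0.684% and 0.475%. Both libraries with RA stood above the 4 without it, and the highest share was 14.6 times the lowest. RA-treated WT, the deepest library, held 84.7% of the 49323 let-7 reads counted in all.

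After scaling, the summed family stood at 1388 normalised CPM in untreated WT, 1259 in untreated KO, 508.9 at dox 12 h, 972.6 at 24 h, 6237 in RA-treated WT and 3675 in RA-treated KO. In bulk RNA, fewer cells of a type and less RNA per cell cannot be told apart. The order from low to high was thus dox 12 h, dox 24 h, untreated KO, untreated WT, RA-treated KO and RA-treated WT. The counting intervals of the 2 untreated libraries met, at 1319 to 1460 in WT and 1201 to 1319 in KO, and those of the other neighbours in this order did not overlap.

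**Figure D1:**
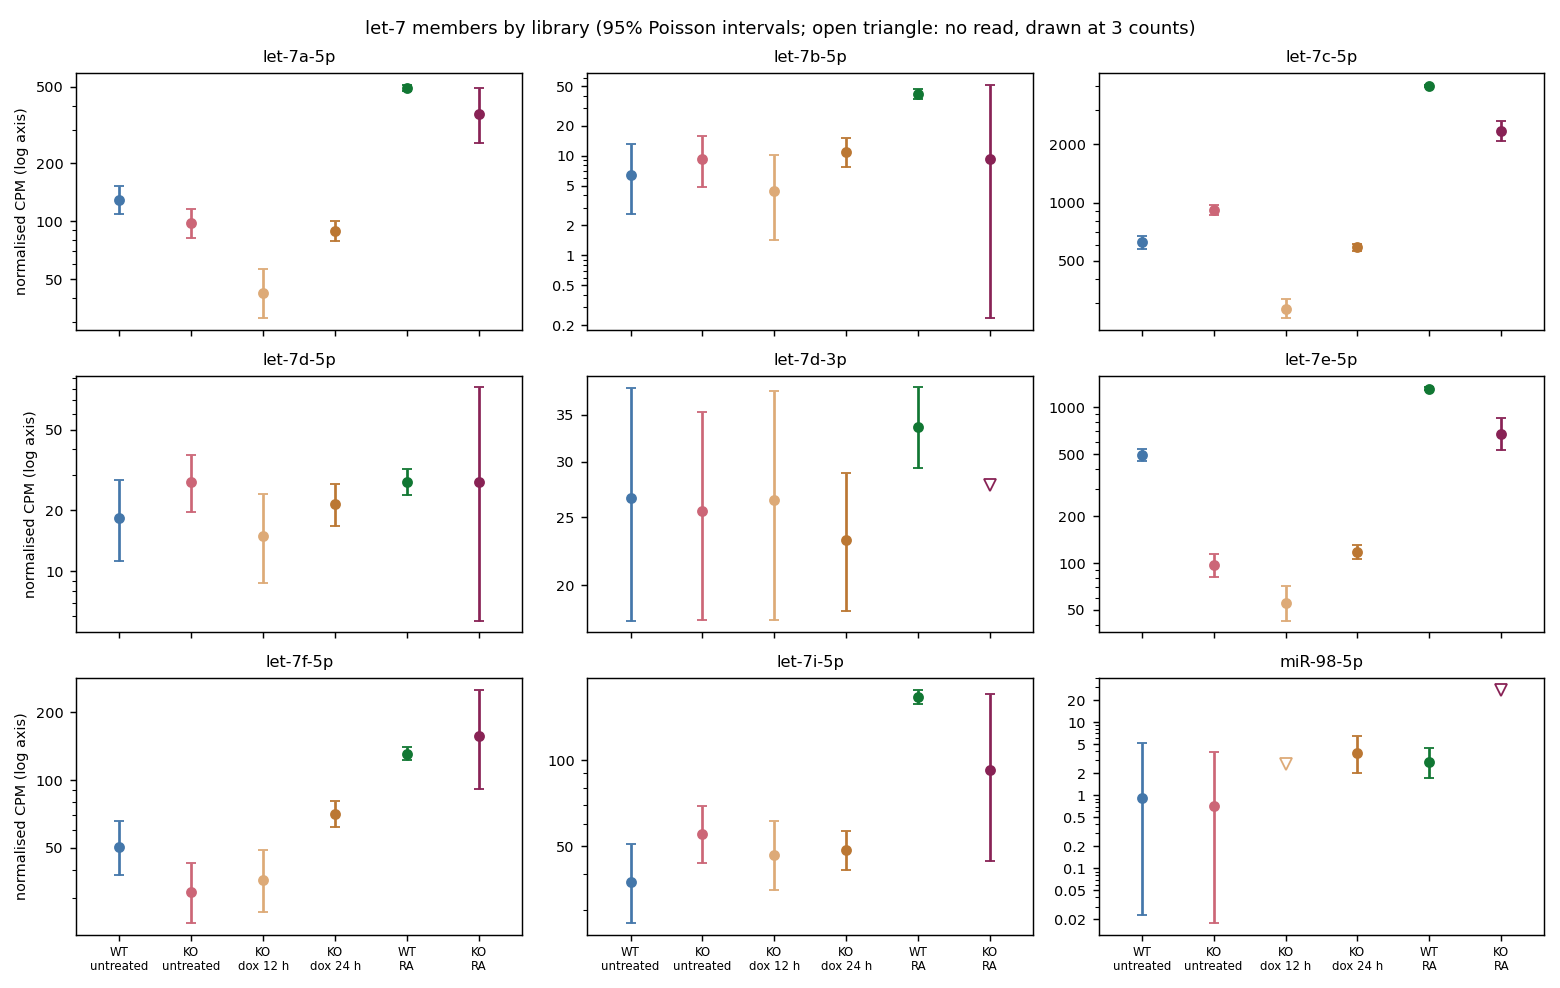
Level of each of the 9 let-7 members in each of the 6 libraries, as normalised CPM on a log axis with its own range per panel; points are single libraries, bars are 95% Poisson counting intervals and an open triangle at the level of 3 counts stands for a library with no read. let-7c-5p, at 4019 in RA-treated WT, is the highest member throughout, and the dox 12 h library is the lowest of the 6 for let-7a-5p, let-7b-5p, let-7c-5p, let-7d-5p and let-7e-5p.

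let-7c-5p was the most abundant member of the family in all 6 libraries. Its normalised CPM was 622.4 in untreated WT, 914.2 in untreated KO, 281.8 at dox 12 h, 586.7 at 24 h, 4019 in RA-treated WT and 2351 in RA-treated KO. The 2 libraries with RA were the highest, and dox 12 h was the lowest. Its highest level was 14.3 times its lowest.

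let-7e-5p had the widest range of the members with reads in every library, 23.7-fold. Its normalised CPM was 495.7 in untreated WT, 97.09 in untreated KO, 55.66 at dox 12 h, 118.2 at 24 h, 1319 in RA-treated WT and 675.7 in RA-treated KO. The 3 KO libraries without RA were all far below untreated WT, and RA-treated KO was above it.

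let-7a-5p was the third member by reads over the 6 libraries. It stood at 129.4 normalised CPM in untreated WT, 97.80 in untreated KO, 42.41 at dox 12 h, 89.06 at 24 h, 495.3 in RA-treated WT and 361.0 in RA-treated KO. The libraries with RA were again the highest and dox 12 h the lowest. The level of let-7i-5p was 37.63, 55.28, 46.82, 48.50, 166.4 and 92.56 in the same order, with little spread among the 4 libraries without RA (1.47-fold between the highest and the lowest). let-7f-5p was at 50.49, 31.89, 36.22, 70.84, 130.9 and 157.3, and was the only member whose highest point lay in RA-treated KO, there from 17 reads.

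The remaining members were scarce. let-7b-5p had 7, 13, 5, 37, 282 and 1 reads in the same order of libraries, and its normalised CPM was between 4.42 and 10.9 outside RA-treated WT, where it was 42.12. let-7d-5p had 20, 39, 17, 73, 186 and 3 reads, and its level moved only 1.85-fold over the 6 libraries, from 15.02 to 27.78 normalised CPM. let-7d-3p had 29, 36, 30, 79, 225 and 0 reads, at 23.22 to 33.61 normalised CPM in the 5 libraries where it was seen. The count of 0 in RA-treated KO allows up to 27.8 normalised CPM, above the level in the 4 libraries without RA and below that in RA-treated WT, against which it was at least 1.21-fold lower. The interval of the log2 ratio of RA-treated KO to RA-treated WT reached 0.03, and let-7d-3p was not called. It was called lower under 3 alternatives: TMM of the 2 libraries alone, a minimum mean count of 10 and no minimum. miR-98-5p, a let-7 relative encoded beside let-7f-2 on the X chromosome, had 1, 1, 0, 13, 19 and 0 reads.

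The make-up of the family does not depend on scaling between libraries. let-7c-5p made up 44.8% of the let-7 reads in untreated WT [42.4 to 47.4, Wilson interval], 72.6% in untreated KO [70.5 to 74.6], 55.4% at dox 12 h, 60.3% at 24 h, 64.4% in RA-treated WT and 64.0% in RA-treated KO. let-7e-5p made up 35.7% in untreated WT [33.3 to 38.2], 7.71% in untreated KO [6.56 to 9.04], 10.9% at dox 12 h, 12.2% at 24 h, 21.1% in RA-treated WT and 18.4% in RA-treated KO. Untreated WT and untreated KO were the extremes for both members, in opposite directions. The share of let-7a-5p was nearly level, between 7.77% and 9.82%.

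**Figure D2:**
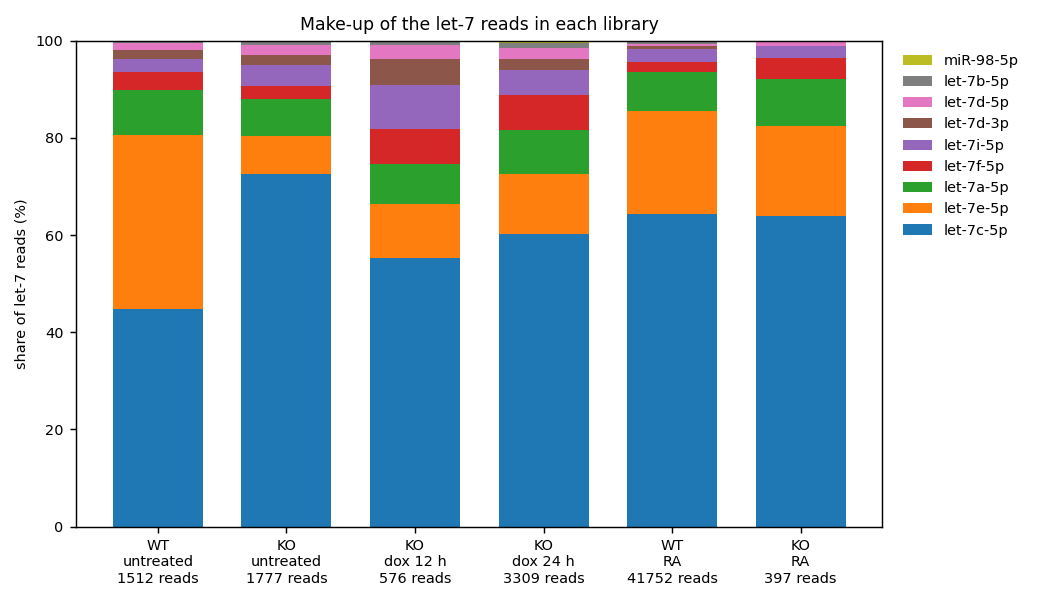
Share of each member in the let-7 reads of each library, in percent, with the number of let-7 reads under each bar; each bar is 1 library. The let-7e-5p segment shrinks from 35.7% in untreated WT to 7.71% in untreated KO, while the 2 libraries with RA have nearly the same make-up, with let-7c-5p at 64.4% and 64.0%.

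The ratio of let-7c-5p to let-7e-5p reads sums up this shift in make-up without any scaling. It was 1.26 [1.12 to 1.41] in untreated WT, 9.42 [7.89 to 11.3] in untreated KO, 5.06 [3.85 to 6.75] at dox 12 h, 4.97 [4.46 to 5.54] at 24 h, 3.05 [2.98 to 3.12] in RA-treated WT and 3.48 [2.67 to 4.58] in RA-treated KO. The untreated genotypes lay farthest apart and their intervals were well separated, while the intervals of the genotypes with RA overlapped. The ratio was thus higher with RA than without it in WT, and lower with RA than without it in KO. Both dox libraries lay between untreated WT and untreated KO.

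Untreated KO was compared with untreated WT to see which members differ where Wt1 is missing. let-7e-5p was the only analysed member past the size rule: 540 reads in WT and 137 in KO gave a log2 ratio of -2.35 [-2.63 to -2.08], 5.11-fold lower. let-7c-5p, at 0.55 [0.42 to 0.69], and the summed family, at -0.14 [-0.24 to -0.04], were within the size limit. So 1 of 8 members was lower and 0 higher, where 15.4% of all 351 entries were lower and 12.3% higher. The median of the 8 members was 0.22, and that of all entries 0.11. let-7f-5p had a ratio of -0.66 [-1.26 to -0.07], which became -1.02 under total-count scaling and then passed the size rule.

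Markers of other cell types also differed between these 2 libraries. The 8 miRNAs of the fibroblast and mesenchyme list are 7 entries, because miR-199a-3p and miR-199b-3p share one. The list summed to 61460 normalised CPM in untreated WT and to 16030 in untreated KO, and miR-22-3p alone made up 57030 and 15080 of these. Of its 6 analysed entries 4 were lower and 0 higher in KO, where 15.4% of all entries were lower and 12.3% higher. The shared miR-199 entry was at 0.69, the other way. The blood and endothelium list of 7 summed to 915.2 and 3052, of which miR-150-5p made up 824.3 and 2937, with miR-223-3p and miR-451a at 0 in both. Of the 3 analysed blood entries 1 was higher and 0 lower. Over the 6 libraries the fibroblast list ranged from 16030 to 61460 and the blood list from 135 to 4307. The neural list of 6 summed to 341.5 in untreated WT and 647.0 in untreated KO. Of its 3 analysed entries 2 were higher and 0 lower. miR-133a-3p, the 1 analysed entry of the muscle list, was lower in KO, at 108.3 and 8.50. Of the 3 endoderm entries 0 were called. The part of these lists in the let-7e-5p difference was not tested.

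RA-treated WT was set against untreated WT to follow the family as the cells differentiate. let-7c-5p went from 678 reads in 1063945 to 26907 in 6106104, a log2 ratio of 2.69 [2.58 to 2.80], which is 6.46-fold. let-7b-5p was 6.56-fold higher, at 2.67 [1.65 to 4.04], from 7 and 282 reads. It is a single base from let-7c-5p, and how many of its reads came from let-7c-5p was not tested. let-7i-5p, at 2.14 [1.70 to 2.63], and let-7a-5p, at 1.93 [1.69 to 2.19], were 4.42-fold and 3.83-fold higher. let-7e-5p and let-7f-5p passed the rule with the smallest ratios, 1.41 [1.29 to 1.54] and 1.37 [0.98 to 1.79].

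Both arms of let-7d stayed under the size limit with RA in WT. let-7d-5p had a ratio of 0.59 [-0.07 to 1.34] and let-7d-3p of 0.33 [-0.23 to 0.95], and both intervals include 0. Thus 6 of 8 members were higher and 0 lower, where 22.5% of all entries were higher and 24.2% lower. One of the 6, let-7b-5p, reached the minimum mean count only through RA-treated WT. The median ratio of the members was 1.67 against 0.14 for all entries, and the summed family was at 2.17 [2.09 to 2.24]. let-7d lies in a cluster with let-7a-1 and let-7f-1 on chromosome 13, 2064 and 1714 bases from them on the - strand, in exons of the non-coding gene 6720427I07Rik. let-7a-5p and let-7f-5p, which this cluster encodes together with the let-7a-2 and let-7f-2 hairpins elsewhere, were among the 6 that passed.

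Marker miRNAs of stem cells and of other cell types also differed in level between the libraries with and without RA. The 6 stem cell miRNAs summed to 105600 normalised CPM in untreated WT and 5510 in RA-treated WT, and to 135400 and 54560 in the KO libraries. The muscle list rested on miR-133a-3p alone, since miR-1a-3p and miR-206-3p had 0 reads in all 6 libraries, and stood at 108.3 and 422.7 in WT and at 8.50 and 222.1 in KO. The fibroblast list summed to 34560 in RA-treated WT and 25350 in RA-treated KO, mostly miR-22-3p again, at 32460 and 22640. Its entries did not go one way. In WT with RA 2 of the 6 analysed were lower, where 24.2% of all entries were, while the shared miR-199 entry was 2.95-fold higher. In KO with RA 2 were higher, the shared entry by 14.4-fold, and 0 lower, where 23.4% of all entries were higher and 23.4% lower. With 6 entries, a count of 2 is near these shares. The blood and endothelium list of 7, with miR-223-3p and miR-451a at 0 reads in all 6 libraries, summed to 915.2 and 135.0 in WT and to 3052 and 333.2 in KO. The neural list of 6 lay between 341.5 and 647.0 over the 6 libraries and the endoderm list of 3 between 177.9 and 359.2. Their part in the let-7 response was not tested.

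**Figure D3:**
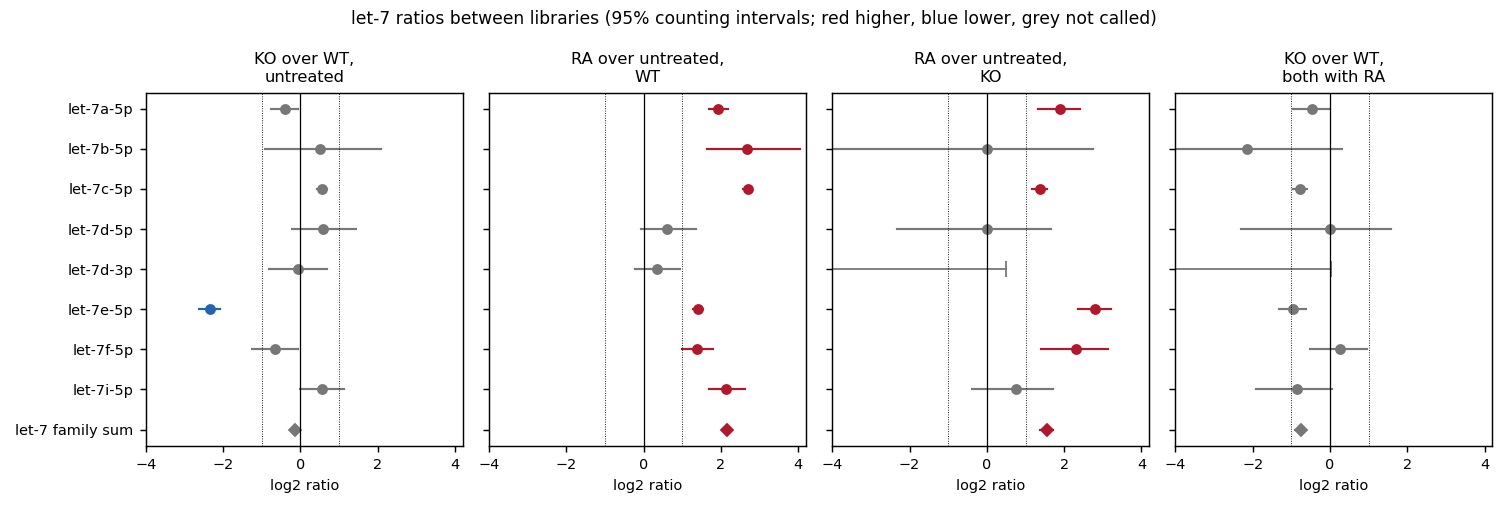
Log2 ratios of the 8 analysed members and the summed family in 4 comparisons between 2 libraries each, with 95% counting intervals; dotted lines mark the 2-fold size limit, red and blue points passed it, and a bar with an end mark but no point stands for let-7d-3p with 0 reads in RA-treated KO, whose interval runs past the left edge as does that of let-7b-5p. Only let-7e-5p is blue, at -2.35 for untreated KO over WT, and 6 members are red with RA in WT and 4 in KO.

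In KO cells with RA the same comparison rested on 397 let-7 reads. let-7e-5p, with 137 reads in 1768862 without RA and 73 in 83626 with RA, had the highest ratio of the family, 2.80 [2.37 to 3.22], or 6.96-fold. let-7f-5p was at 2.29 [1.40 to 3.14], let-7a-5p at 1.88 [1.33 to 2.41] and let-7c-5p at 1.36 [1.16 to 1.56]. These 4 of 8 members were higher and 0 lower, where 23.4% of all entries were higher and 23.4% lower. The median of the members was 1.05, also with let-7d-3p at its bound, against -0.11 for all entries, and the summed family was at 1.54 [1.38 to 1.70].

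The other 4 members could not be placed at this depth. let-7i-5p had 10 reads with RA and a ratio of 0.74 [-0.37 to 1.70], which passed the size rule under total-count scaling, at 1.43. let-7d-5p, with 3 reads, was at 0.01 [-2.33 to 1.66], and let-7b-5p, with 1 read, at 0.01 [-5.40 to 2.74]. let-7d-3p had 36 reads without RA and 0 with RA, and no fold is given because its level without RA, 25.51 normalised CPM, is under the limit of 27.8 that 0 reads allow. Scaling weighed on this library: under total-count scaling the median of all entries moved by 0.69 and the summed family was at 2.24.

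The genotypes were compared in their response to RA, as the ratio in KO minus the ratio in WT. let-7e-5p responded more in KO, by 1.39 [0.96 to 1.81]. let-7c-5p responded less, with a difference of -1.33 [-1.55 to -1.11], as did let-7i-5p, at -1.40 [-2.45 to -0.35]. So 1 of 8 members had a higher and 2 a lower response, where 21.7% of all entries were higher and 15.1% lower. let-7a-5p had nearly the same ratio in both genotypes, with a difference of -0.05 [-0.62 to 0.51].

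The 2 directions differed in how far they rested on the scaling. The let-7e-5p difference lay between 1.02 and 2.10 over 9 alternatives and kept its call in each. The let-7c-5p and let-7i-5p differences fell to -0.73 and -0.80 under total-count scaling, and to -0.61 and -0.68 when that total omits the stem cell clusters, and were then under the size limit. let-7f-5p, at 0.92 [0.03 to 1.82], passed with 1.52 under total-count scaling, 1.64 with the stem cell clusters omitted and 1.18 by the median of ratios. For the summed family the difference was -0.62 [-0.80 to -0.45], and it turned to 0.09 when the stem cell clusters were left out of the total. With the clusters kept in the total the 2 responses were also close. The family then held 0.142% of reads without RA and 0.684% with RA in WT, and 0.100% and 0.475% in KO.

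The 2 RA-treated libraries were then set against each other, KO over WT. let-7c-5p was at -0.77 [-0.96 to -0.60] and let-7e-5p at -0.96 [-1.32 to -0.63], lower by less than 2-fold. let-7a-5p was at -0.46 [-0.95 to -0.0023], let-7i-5p at -0.84 [-1.91 to 0.04], let-7f-5p at 0.27 [-0.52 to 0.95] and let-7b-5p, from 1 read, at -2.16 [-7.50 to 0.30]. Hence 0 of 8 members were called in either direction, where 17.9% of all entries were higher and 19.4% lower. The median was -0.81, or -0.61 with let-7d-3p at its bound, and the summed family was at -0.76 [-0.91 to -0.62].

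These counts moved with the choice of entries used for scaling. With TMM over all entries without a minimum, 5 of 8 members were lower and the summed family was at -1.18. Of all 1899 entries, which include those under the minimum, 110 were then lower and 80 higher. The scaling factor of RA-treated KO was 1.65 in this setting, against 1.29 in the main one. let-7e-5p lay so near the limit that it also passed with TMM of the 2 libraries alone, at -1.04. The stem cell markers differed in the other direction: the 6 miRNAs summed to 5510 normalised CPM in RA-treated WT and 54560 in RA-treated KO. Their part in the let-7 ratios was not tested.

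Dox was compared with no treatment in KO cells, as a time course of the inducible Wt1. At 12 h let-7c-5p was lower, with 1290 reads in untreated KO and 319 with dox, a log2 ratio of -1.70 [-1.88 to -1.52], and so was let-7a-5p, at -1.20 [-1.71 to -0.72]. let-7e-5p was at -0.80 [-1.26 to -0.36] and let-7d-5p at -0.87 [-1.79 to -0.02]. let-7b-5p, from 13 and 5 reads, was at -1.02 [-2.90 to 0.52], and let-7f-5p, let-7i-5p and let-7d-3p lay between -0.24 and 0.18. Thus 2 of 8 members were lower and 0 higher, where 8.83% of all entries were lower and 4.27% higher. The summed family was at -1.31 [-1.45 to -1.17], and at -0.98, under the size limit, with total-count scaling that omits the stem cell clusters. let-7a-5p was at -0.99 under total-count scaling and at -0.87 when the clusters were omitted, and so lost its call in both. The 6 stem cell miRNAs summed to 135400 normalised CPM in untreated KO and 186100 at dox 12 h, but 0 of the 6 were called, with a median of 0.19. miR-295-3p, at 72620 and 129200, carried the rise of the sum. Slightly lower with dox were miR-292a-3p, miR-293-3p and miR-294-3p, and higher were miR-291a-3p and miR-302d-3p. The part of these miRNAs in the let-7 ratios was not tested. Of the fibroblast list, 0 of 6 analysed entries were called, with a median of 0.03, and miR-22-3p alone, from 15080 to 30160, carried the change of its sum.

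At 24 h of dox the summed family was below its untreated level by less than 2-fold. let-7f-5p, with 45 reads in untreated KO and 241 with dox, was higher at 1.15 [0.69 to 1.64], and let-7c-5p was at -0.64 [-0.74 to -0.54]. So 1 of 8 members was higher and 0 lower, where 5.7% of all entries were higher and 3.7% lower. The summed family was at -0.37 [-0.46 to -0.29]. Between 12 h and 24 h, let-7c-5p, let-7e-5p and let-7a-5p were higher at 24 h, at 1.06, 1.08 and 1.07, the least of their lower bounds being 0.63. These are 3 of 8 members higher and 0 lower, where 4.27% of all entries were higher and 0.855% lower, and the summed family was at 0.93 [0.81 to 1.06]. The comparisons at 12 h and between 12 h and 24 h share the dox 12 h library, so both differences of let-7a-5p and of let-7c-5p rest in part on the same counts.

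**Figure D4:**
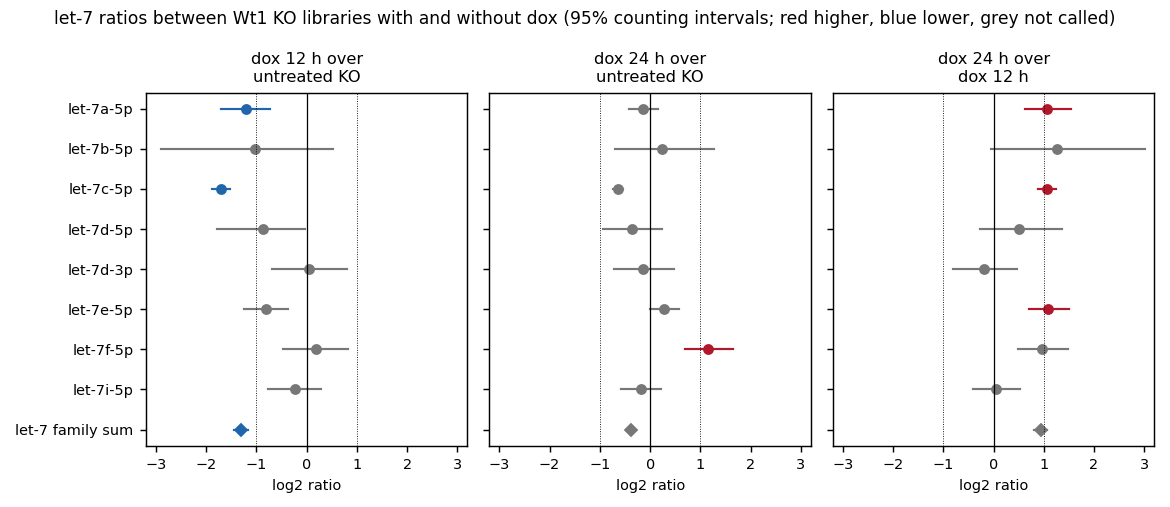
Log2 ratios of the 8 analysed members and the summed family between KO libraries with and without dox, with 95% counting intervals; dotted lines mark the 2-fold size limit, and red and blue points passed it. let-7c-5p is at -1.70 at 12 h and at 1.06 between 12 h and 24 h, and let-7f-5p alone is red at 24 h, at 1.15.

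The dox libraries were also set against untreated WT, to see how far the members stood from the WT level. let-7e-5p was 8.91-fold lower than in WT at 12 h, at -3.15 [-3.56 to -2.78], and 4.19-fold lower at 24 h, at -2.07 [-2.26 to -1.88]. Untreated KO, as above, was 5.11-fold lower. In all 3 comparisons the untreated WT library is the same. At 12 h let-7a-5p and let-7c-5p were lower too, at -1.60 and -1.14, making 3 of 8 members lower and 0 higher, where 17.7% of all entries were lower and 12.3% higher. At 24 h let-7e-5p was the only member past the rule, 1 of 8 lower and 0 higher, where 14.5% of all entries were lower and 11.1% higher. let-7c-5p at 24 h stood at -0.09 [-0.21 to 0.04] against WT.

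The genomic neighbours of let-7e were read from the same tables. let-7e sits 367 bases from miR-125a and close to miR-99b in the same Spaca6 intron. These partners were far more abundant than let-7e-5p: miR-99b-5p stood at 35563 reads and miR-125a-5p at 23566 in untreated WT. In untreated KO against WT, miR-99b-5p was at -1.51 [-1.54 to -1.49] and miR-125a-5p at -1.68 [-1.71 to -1.64], and all 4 arms of the 2 partners were lower, with a median of -1.69, where 15.4% of all entries were lower and their median was 0.11. let-7e-3p, the minor arm of the let-7e hairpin, was under the minimum mean count. It went the same way, with 22 reads in WT and 3 in KO, a ratio of -3.12 [-5.63 to -1.51].

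With RA, let-7e-5p and its partners parted in size. In WT miR-99b-5p was at 0.62 and miR-125a-5p at 0.46, against 1.41 for let-7e-5p, and none of the 4 partner arms passed the size rule, where 22.5% of all entries were higher and 24.2% lower. In KO miR-99b-5p was at 0.06 and miR-125a-5p at 0.32, against 2.80 for let-7e-5p, and 1 of the 4 arms was higher, where 23.4% of all entries were. Per read of miR-99b-5p there were 0.0152 reads of let-7e-5p in untreated WT [0.0139 to 0.0165], 0.0263 in RA-treated WT [0.0257 to 0.0268], 0.00850 in untreated KO [0.00713 to 0.0101] and 0.0569 in RA-treated KO [0.0443 to 0.0721]. This ratio within each library is free of scaling, and it was higher with RA than without it in both genotypes, with intervals that did not overlap. Per read of miR-125a-5p the values were 0.0229, 0.0444, 0.0144 and 0.0800 in the same order, again higher with RA in both.

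let-7c-1 and let-7a-2 have partners of another kind. let-7c-1 lies 656 bases from miR-99a, and let-7a-2 lies 5211 bases from miR-100 and 45114 bases from miR-125b-1 on chromosome 9. miR-99a-5p had 4, 0, 1, 3, 3317 and 39 reads in untreated WT, untreated KO, dox 12 h, dox 24 h, RA-treated WT and RA-treated KO, so it was nearly absent without RA, while let-7c-5p had 319 to 1996 reads in those libraries. The ratio of let-7c-5p to miR-99a-5p reads was 169.5 [65.9 to 623.9] in untreated WT, 8.11 [7.82 to 8.41] in RA-treated WT and 6.51 [4.64 to 9.37] in RA-treated KO. miR-100-5p, with 16, 2, 0, 13, 3868 and 16 reads in the order above, reached 577.8 and 148.1 normalised CPM with RA and at most 14.69 without it. Of the 7 arms of miR-99a, miR-100 and miR-125b, 5 reached the minimum mean count, and miR-99a-5p, miR-100-5p, miR-125b-1-3p and miR-125b-2-3p did so only through RA-treated WT, where they are high, so that no count over these arms is given. miR-125b-5p reached it without that library too, and its ratio with RA was 3.29 [3.16 to 3.41] in WT and 3.33 [2.95 to 3.70] in KO. In untreated KO against WT miR-125b-5p was at -2.31 [-2.59 to -2.04], whereas let-7c-5p was at 0.55.

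**Figure D5:**
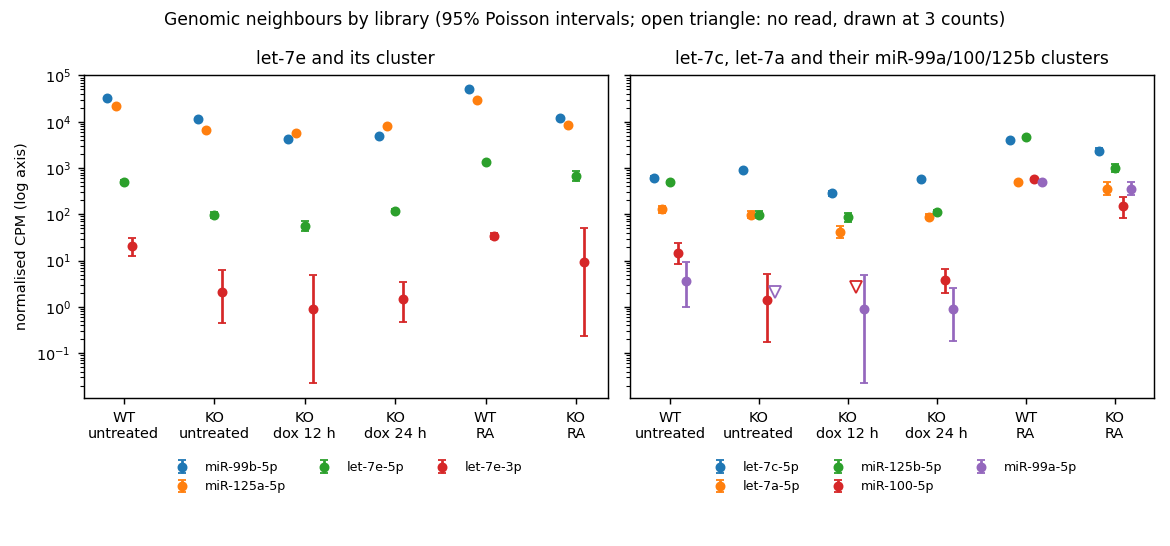
Level of let-7e with its cluster partners (left) and of let-7c-5p and let-7a-5p with miR-99a, miR-100 and miR-125b (right) in the 6 libraries, as normalised CPM on a log axis; bars are 95% Poisson counting intervals, and an open triangle at the level of 3 counts stands for a library with no read. The 5p arms of the let-7e partners stay above let-7e-5p in every library, while miR-99a-5p goes from 4 reads or fewer without RA to 3317 and 39 reads with RA.

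The arms of the let-7d hairpin were both counted as members. Their ratio, let-7d-5p over let-7d-3p, was 0.69 [0.37 to 1.26] in untreated WT, 1.08 [0.67 to 1.75] in untreated KO, 0.57 [0.29 to 1.06] at dox 12 h, 0.92 [0.66 to 1.29] at 24 h and 0.83 [0.68 to 1.008] in RA-treated WT. Every one of these 5 intervals included 1, so neither arm was shown to be in excess. In RA-treated KO there were 3 and 0 reads, which gives no ratio. The let-7e hairpin was far from such a balance, with 24.6 reads of let-7e-5p per read of let-7e-3p in untreated WT [16.0 to 39.5] and 38.6 in RA-treated WT [33.8 to 44.1]. The other 3p arms were nearly absent: 12 further let-7 and miR-98 entries outside the members had 282 reads in all libraries together, 261 of them from let-7e-3p.

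Other miRNAs tied to let-7 by function were described beside it. miR-291, miR-292, miR-294, miR-295 and miR-302 3p arms are the stem cell miRNAs that speed the cell cycle and are known to oppose let-7. Their 9 listed entries summed to 98190 normalised CPM in untreated WT, 123600 in untreated KO, 174800 at dox 12 h, 152700 at 24 h, 5021 in RA-treated WT and 47570 in RA-treated KO. In RA-treated WT the summed let-7 family, at 6237, stood above this sum, and in the other 5 libraries it stood far below it. Of the 7 analysed, all were lower with RA in WT (median -4.42), where 24.2% of all entries were lower, and 3 were lower with RA in KO, where 23.4% were. Of 8 other miRNAs reported to target Lin28, miR-125 and miR-30 members and miR-9-5p, 3 were higher with RA in WT, where 22.5% of all entries were higher, and 1 in KO, where 23.4% were, a share below that of all entries. None was lower, and the medians were 0.73 and 0.11, against 0.14 and -0.11 for all entries.

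The entries whose pattern over the 6 libraries was most like that of the summed family were picked by the Pearson correlation of log2 normalised CPM. They were miR-483-5p (r = 0.98), miR-100-5p (0.97), miR-483-3p (0.97), miR-328-3p (0.97) and miR-345-5p (0.97). All of these except miR-328-3p reached the minimum mean count only through RA-treated WT. The family is highest there too, so the choice of entries favours a high r. The 6 points share the depth of their libraries and the contrast with RA, so r is only a description. miR-328-3p stood at 396.5, 304.0, 189.9, 276.6, 696.7 and 749.7 normalised CPM in the order above, highest with RA and lowest at dox 12 h like the family. miR-483-5p had 6, 3, 0, 9, 688 and 9 reads, which is 102.8 and 83.30 normalised CPM with RA and at most 5.51 without it. For single members the most alike entry was miR-483-5p for let-7a-5p, miR-3072-3p for let-7b-5p, miR-1839-5p for let-7c-5p, miR-134-5p for let-7d-5p, miR-425-3p for let-7d-3p, miR-1981-5p for let-7e-5p, miR-322-5p for let-7f-5p and miR-370-3p for let-7i-5p, with r between 0.961 and 0.998. The highest r is that of let-7d-3p with miR-425-3p, which both had 0 reads in RA-treated KO.

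Among themselves, the members did not all move alike. let-7a-5p and let-7c-5p, a single base apart, had the highest correlation over the 6 libraries (r = 0.97), followed by let-7a-5p and let-7e-5p (0.94). let-7c-5p and let-7e-5p were at 0.85. let-7d-5p and let-7e-5p were at 0.53, and let-7d-3p had a negative r with 6 of the other 7 members, with its 0 reads in RA-treated KO among the 6 points.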

How the data were processed

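Small RNA was sequenced from 6 groups of mouse embryonic stem cells, 1 library each, so nothing was averaged and no p-value is given. Total RNA was ligated to adapters, and the gel bands of miRNAs and of slightly longer small RNAs were pooled, per the labels' protocols. Per the file headers, the deposited counts are reads that match a single mature miRNA entry (unique matches) or several (multi-matches). The aligner, permitted mismatches, miRBase release and build were not given in the sources used here. Unique-match counts were used, and multi-matches only in an alternative, since such a read stands at each entry it matches. Totals ran from 83626 to 6106104 reads.

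Entries were analysed when their mean count reached 50, which 351 did. Counts were scaled by TMM over the 6 libraries (edgeR 4.0.16, R 4.3.3), and log2 ratios used a prior count of 0.5 scaled to library size. Ratios have 95% exact conditional binomial (Clopper-Pearson) intervals, levels exact Poisson intervals, shares Wilson intervals, and differences between responses delta-method intervals. All cover counting error only. Ratios and calls were tried on simulated Poisson counts, which hold no variation between replicates or from PCR. The interval check also allowed for the known scaling shift, so it does not bear on scaling error. Alternatives were scaling to the total count (CPM), the median of ratios (DESeq2 1.42.0), total-count scaling that omits the miR-290 and miR-302 clusters (stem cell clusters), TMM of the 2 libraries compared, a minimum of 10, of 200 or none, a prior of 2, unique plus multi-matches and a 1.5-fold limit. TMM without RA-treated KO was added after the data were seen. Mature and hairpin sequences were read from RefSeq (GRCm38.p6), and gene overlaps from GENCODE of the same assembly, since the files hold no coordinates. All members were named, with up to 6 entries of each list and the entries most alike in pattern. The members and lists were chosen with earlier results of these data known.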

Additional observations from a re-analysis of the deposited data

Results flagged for a closer look

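Reads that match several entries were not used in the comparisons, and among the members only let-7a-5p and let-7c-5p had any. In each library the numbers were the same for both: let-7a-5p and let-7c-5p each had 4 multi-matches in untreated WT, 120 in RA-treated WT, 7 in untreated KO and 9 at dox 24 h, above the limit of 3 that a count of 0 allows. At dox 12 h each had 1 and in RA-treated KO each had 2, under that limit. With these reads added, no member and no sum of the family changed its call.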

How the results depend on the processing

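No paired analysis was possible because each group has 1 library, and leaving out a replicate was not possible for the same reason. The cause of each change below was not tested, except that a 1.5-fold limit calls more by construction. Nothing called was reversed. Of the single-member results under alternatives, 787 kept their call, 25 gained and 6 lost one. Under total-count scaling 2 members were lower in untreated KO against WT, as were 77 of all 351 entries. At dox 12 h 1 member was lower, as were 13 of 351. The RA response of KO against WT was higher for 2 members and lower for 0. Of all 351 entries 124 had a higher response and 20 a lower one. With the stem cell clusters omitted the member counts were the same. Of the 351 entries 76 were then lower in untreated KO and 9 at dox 12 h, and the response was higher for 131 and lower for 15. Without the clusters the family sum at dox 12 h was -0.98. By the median of ratios, 2 members had a higher RA response in KO, as did 88 of 351 entries. Between KO and WT with RA, 2 members were lower with TMM of the pair or a minimum of 10. Of all entries 72 of 351 and 79 of 506 were lower in these settings. With no minimum 5 members were lower, as were 110 of 1899 entries, and the sum was -1.18. With a 1.5-fold limit, 2 members were lower in untreated KO, as were 76 of 351 entries. In RA-treated KO against RA-treated WT 2 were lower (sum -0.76), as were 90 of 351. At dox 12 h 4 members and 71 of 351 entries were lower, and at dox 24 h 1 member and 43 of 351. A higher RA response in KO was held by 2 members and 83 of 351 entries (sum of the difference -0.62). The sum between 12 h and 24 h of dox, 0.93, was also called.

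Under total-count scaling the median of all entries moved by -0.35 between the untreated genotypes, 0.69 for RA in KO, 0.20 and 0.23 at dox 12 h and 24 h, 0.24 between the RA-treated genotypes and 0.58 for the difference of responses. The let-7e-5p ratio of untreated KO to WT stayed between -2.71 and -2.31, and the family sum with RA between 2.02 and 2.27 in WT and between 1.19 and 2.24 in KO. RA-treated KO, with 397 let-7 reads, limits every comparison it enters.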
